A study of Homo sapiens with 47 samples.

Results

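The genes described here are 36 markers of epithelial and mesenchymal cell identity, chosen by name from the 57507 genes of the expression table. They hold 26 epithelial genes (4 adhesion molecules, 6 genes of the tight junction, 4 of the desmosome, 4 keratins, 3 genes of a surface protease and its inhibitors, and 5 regulators) and 10 mesenchymal genes (5 transcription factors and 5 structural or secreted proteins). Each symbol stood on 1 row of the table, so all 36 were found. They were followed in RNA from 2 human cell lines: HAP1, a near-haploid line derived from a chronic myeloid leukemia, and HCT116, a line from a colorectal carcinoma. In HAP1, 4 libraries each came from WT cells (genotype wild-type), from EV cells (transfected with Cas9 but no gRNA) and from 6 clones, C1 to C6, whose genotype is NUP58 mutated. NUP58 encodes a nuclear pore protein, and each clone was grown from a single Cas9-edited cell, so that a clone is 1 line and its libraries are repeats of that line. In HCT116, 4 libraries carry the label Clone (NUP58 mutated) and 11 come from unedited cells: 2 WT, 3 EV1 and 4 EV2 libraries, with EV1 and EV2 again transfected with Cas9 and no gRNA, and 2 libraries whose title and genotype conflict. Of these, 1 is titled EV1 with a wild-type genotype and 1 is titled WT with the Cas9 control genotype, and both were used only as unedited controls. The study describes its HAP1 RNA-seq replicates as separate experiments, while the labels name no cultures, so p-values measure the spread between these libraries.

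Epithelial cells hold to each other through adherens junctions, tight junctions and desmosomes, and keratin filaments anchored at the desmosomes carry load across the sheet. Mesenchymal cells lack most of these contacts, are built on vimentin filaments and use N-cadherin in place of E-cadherin. In the passage between the states, the repressors ZEB1, ZEB2, SNAI1, SNAI2 and TWIST1 lower epithelial genes such as CDH1, and GRHL2, OVOL1, ESRP1 and ESRP2 act on the epithelial side. HAP1 grows attached although it comes from a blood cancer, and HCT116 grows as an epithelial sheet.

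The ZEB and SNAI proteins bind the E-box CACCTG, so this motif was looked for on both strands (CACCTG or CAGGTG, which are the same site read from either side) in RefSeq promoter windows of 300 bases, from 250 before to 50 after the start site, in GRCh38.p14. Of the 36 genes, 20 had such a window, and those without one were CDH1, CDH3, EPCAM, PKP3, KRT18, KRT19, ST14, SPINT2, GRHL2, OVOL1, ESRP1, ESRP2, SNAI1, SNAI2, TWIST1 and MMP2. The motif stood in 8 of 14 epithelial windows and 2 of 6 mesenchymal windows, while 20.6% of all 35116 windows hold it. DSP and DSG2 had 2 matches each, as 3.49% of all windows do. CEACAM5, CLDN3, OCLN, TJP1, KRT20, ELF3, ZEB1 and S100A4 had 1 match each. The windows below belong to genes the results turn on and show what the scan read, with matches in capitals: both desmosomal genes with a pair of matches, ZEB1 with 1, and KRT8 and ZEB2 with no match.
DSP, plus strand of chr6:7541421-7541720: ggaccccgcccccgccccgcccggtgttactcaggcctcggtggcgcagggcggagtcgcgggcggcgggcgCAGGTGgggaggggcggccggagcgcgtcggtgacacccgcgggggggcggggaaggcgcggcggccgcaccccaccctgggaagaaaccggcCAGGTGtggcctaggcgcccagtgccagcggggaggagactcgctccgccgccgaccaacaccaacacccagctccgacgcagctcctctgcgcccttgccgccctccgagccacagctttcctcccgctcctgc
DSG2, plus strand of chr18:31497927-31498226: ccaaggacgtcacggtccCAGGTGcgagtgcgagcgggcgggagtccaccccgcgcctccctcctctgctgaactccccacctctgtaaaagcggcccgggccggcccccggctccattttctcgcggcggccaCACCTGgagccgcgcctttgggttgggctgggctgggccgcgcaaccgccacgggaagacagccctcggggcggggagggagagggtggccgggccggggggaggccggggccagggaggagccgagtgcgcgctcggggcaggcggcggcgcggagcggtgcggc
KRT8, minus strand of chr12:52926420-52926719: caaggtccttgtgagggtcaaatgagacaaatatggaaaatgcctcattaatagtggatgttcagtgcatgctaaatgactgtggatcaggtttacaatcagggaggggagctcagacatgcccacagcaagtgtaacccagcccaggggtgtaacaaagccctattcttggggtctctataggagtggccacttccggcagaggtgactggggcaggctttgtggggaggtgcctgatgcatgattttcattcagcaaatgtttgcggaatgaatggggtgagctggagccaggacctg
ZEB1, plus strand of chr10:31318167-31318466: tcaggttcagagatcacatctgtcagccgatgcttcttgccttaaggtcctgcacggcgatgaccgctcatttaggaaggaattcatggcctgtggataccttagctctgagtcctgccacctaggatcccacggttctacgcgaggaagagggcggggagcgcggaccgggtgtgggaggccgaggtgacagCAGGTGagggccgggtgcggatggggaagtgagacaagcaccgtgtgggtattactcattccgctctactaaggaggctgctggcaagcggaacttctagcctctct
ZEB2, minus strand of chr2:144520070-144520369: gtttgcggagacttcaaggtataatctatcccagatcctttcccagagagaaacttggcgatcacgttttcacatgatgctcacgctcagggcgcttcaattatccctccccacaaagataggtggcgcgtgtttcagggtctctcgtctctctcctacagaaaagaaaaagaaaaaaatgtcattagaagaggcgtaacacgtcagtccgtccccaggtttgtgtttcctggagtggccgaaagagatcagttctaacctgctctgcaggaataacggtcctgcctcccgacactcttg
The matches in DSP began at positions -178 and -85 from the start site and those in DSG2 at -232 and -116, and the ZEB1 match began at -57. These are matches of letters, and binding was not measured. The scan read 1 window per gene, the first listed for its symbol. Of the windows shown, 3 lie inside the gene as GENCODE places it, away from its outer start. These are KRT8 (chr12:52897187-52949954, minus strand), ZEB2 (chr2:144364364-144521057, minus strand) and DSP (chr6:7541338-7586714, plus strand). The lack of a match in KRT8 and ZEB2, and the matches in DSP, thus cover those windows only.

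The values are FPKM (fragments scaled to transcript length and to library size), made by the authors with STAR and RSEM. They sum to between 604053 and 721992 per library, and since they hold no counts the depth is unknown. Tests used limma on log2(FPKM + 1), for genes that averaged 1 FPKM or more in the libraries compared, with Benjamini-Hochberg adjustment over all genes tested, and a gene passed at an adjusted p under 0.05. A difference on this scale understates the change of a gene with low values. In bulk RNA, fewer cells of a type and less RNA per cell cannot be told apart. NUP58 itself had a mean of 41.3 ± 8.07 FPKM (SD, n = 4) in HAP1 WT and between 7.98 and 28.0 FPKM in the 24 clone libraries, below all 8 unedited HAP1 libraries (34.3 to 50.4).

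In HCT116, some libraries had levels unlike others of the same label, and whether labels were exchanged was not tested. NUP58 was at 25.3, 23.3 and 24.3 FPKM in Clone replicates 1, 2 and 4, but at 44.7 in the library labelled Clone replicate 3, which lay among the controls. The library labelled EV2 replicate 3 had 23.9 FPKM, as low as the clone. The next lowest controls were EV1 and EV2 replicate 1, at 28.7 and 29.7. ZEB1, a repressor of epithelial genes, was at 3.87, 4.52 and 4.33 FPKM in Clone replicates 1, 2 and 4 and at 1.17 in the library labelled Clone replicate 3, while the other controls had between 1.08 and 1.79 and the library labelled EV2 replicate 3 had 2.49. GRHL2 and VIM also divided the controls: GRHL2 was at 5.02 and 4.57 in WT replicates 1 and 2 and at 3.48 and 4.25 in EV1 replicates 1 and 2, but at 0.357 and 0.140 in EV2 replicates 1 and 2. The library labelled EV1 replicate 3 (0.445 FPKM of GRHL2) and the control titled WT replicate 4 (0.221) lay nearer to EV2, and EV2 replicate 4 (4.77) lay nearer to WT and EV1. VIM was at 8.35 to 12.2 FPKM in the 5 controls with GRHL2 under 1 FPKM, and at 1.03 to 6.52 in the other 6. Results on the HCT116 clone are therefore given with and without the libraries numbered 3, and with replicates 1 and 2 alone. The comparison of unedited cell lines keeps all 11 controls, and was not fitted without only those numbered 3. With HCT116 replicates 1 and 2 alone, the same 31 of the 36 genes passed in it (65.2% of all genes).

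Markers of the tissues of origin were low in both lines. Of 6 colon epithelium markers, the homeobox factor CDX2 alone reached a mean of 1 FPKM, with 2.75 ± 0.868 (SD, n = 8) in unedited HAP1 and 6.09 ± 1.40 (SD, n = 11) in unedited HCT116, and VIL1 and CDH17 had means under 0.1 in both. Of 10 blood cell markers, none reached a mean of 1 FPKM in HAP1, with the 10 genes summing to between 0.209 and 1.92 FPKM per unedited library, and in unedited HCT116 LYL1 alone did, at 1.39 ± 0.664 (SD, n = 11). In HCT116 Clone, CD33 was the 1 blood marker at that level.

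**Figure D1:**
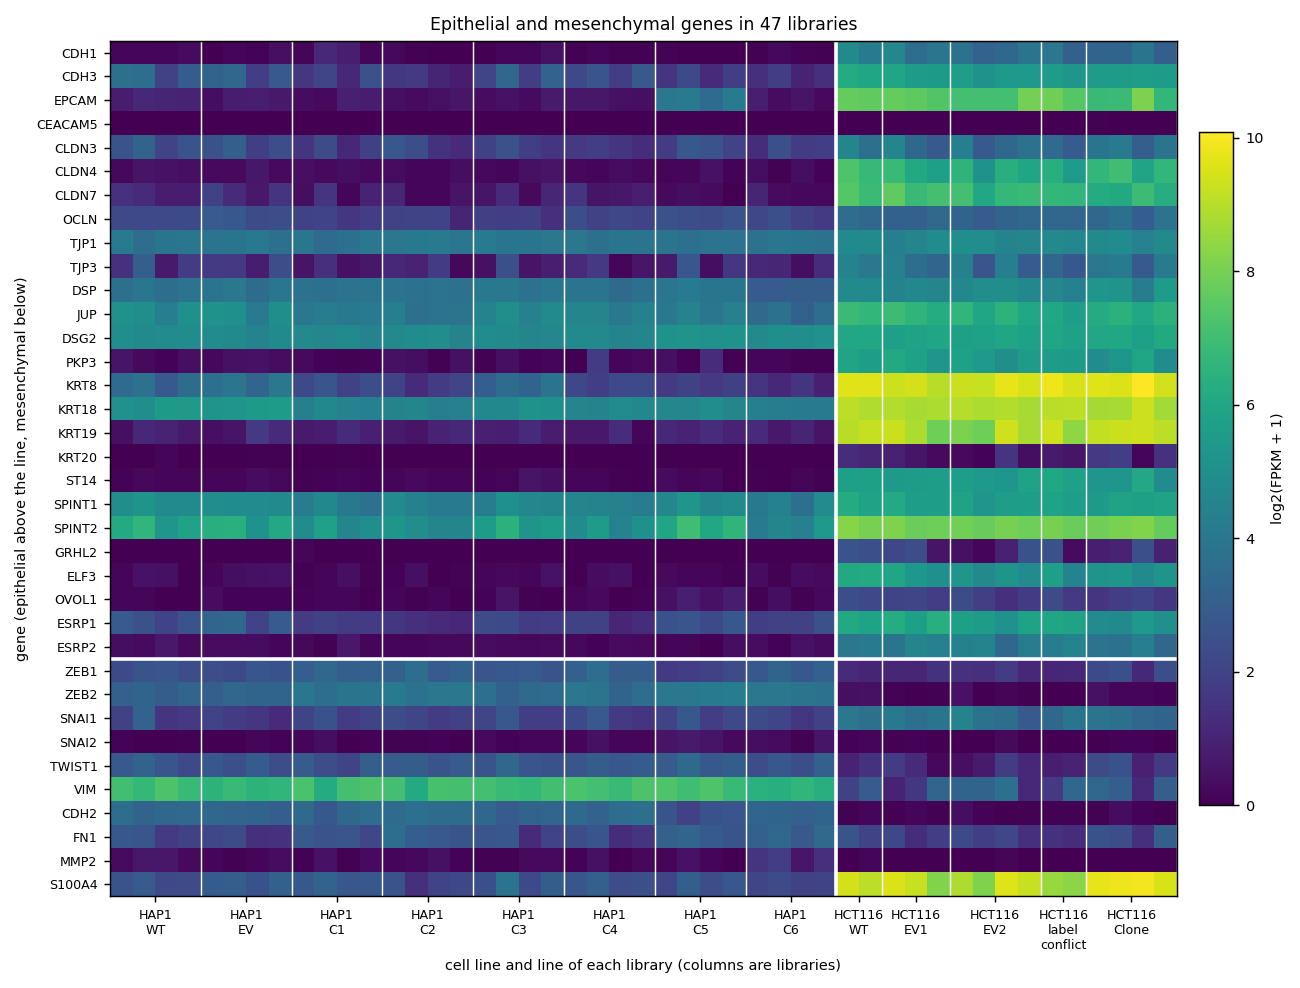
Level of each of the 36 genes (rows) in each of the 47 libraries (columns), as log2(FPKM + 1), with 26 epithelial genes above the horizontal white line, 10 mesenchymal genes below it, and HAP1 to the left of the thick vertical line. The block of HCT116 columns is bright for most epithelial genes, VIM is bright in HAP1, and EPCAM is lit in clone C5 (10.5 to 16.7 FPKM) among otherwise dark HAP1 columns.

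Unedited HAP1 and HCT116 cells differed in nearly all of these genes. Of the 36 genes, 32 were tested and 31 passed, against 68% of all 13538 genes tested, so most genes differed between the lines. All 24 epithelial genes tested were lower in HAP1, against 28.5% of all genes, with a median difference of -2.91 on the log2 scale, and the median over all genes was 0.10. Of 8 mesenchymal genes tested, 5 were higher in HAP1 (ZEB1, ZEB2, TWIST1, VIM and CDH2), against 39.5% of all genes, while SNAI1 and S100A4 were lower and FN1 did not pass (0.19, adjusted p = 0.429). CEACAM5, KRT20, SNAI2 and MMP2 were below the minimum level. Genes such as CDH1, CLDN4 and ST14 reached that level only through HCT116, and CDH2 and ZEB2 only through HAP1. The filter thus fixed in advance the direction in which such genes could pass. With no filter, 33 of the 36 passed, against 45.4% of 26742 genes. Of these, 25 epithelial genes were lower in HAP1 and 0 higher, and 6 mesenchymal genes were higher and 2 lower. The libraries of the lines did not overlap at all for 28 of the 36 genes, 22 epithelial and 6 mesenchymal, against 32.4% of all genes tested.

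Among the adhesion molecules, CDH1, which encodes E-cadherin, was almost absent from HAP1, with a lowest, median and highest value of 0, 0.117 and 0.332 FPKM over 8 unedited libraries. In the 11 unedited HCT116 libraries it ran from 7.47 through a median of 13.7 to 26.5. The difference was -3.68 ± 0.19 on the log2 scale (SE, adjusted p = 6.22e-14), and no library of one line reached the range of the other.
EPCAM, an adhesion molecule of simple epithelia, ran from 0.309 through 0.770 to 1.25 FPKM in HAP1 and from 132 through 189 to 253 in HCT116, a ratio of means of 229.9 (log2 difference -6.66 ± 0.13, adjusted p = 2.74e-21). CDH3, which encodes P-cadherin, was present in both lines, with 2.54 to 12.2 FPKM (median 7.46) in HAP1 and 34.7 to 72.3 (median 45.0) in HCT116, 6.61 times the mean. CEACAM5, a colonic surface glycoprotein, was listed at 0 in every HAP1 library and reached at most 0.0368 FPKM in HCT116.

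The claudins CLDN4 and CLDN7, which seal the space between cells, were near the floor in HAP1, with means of 0.307 and 1.40 FPKM against 80.9 and 123 in HCT116. CLDN3 was moderately expressed in both lines (means 5.07 and 12.7), with overlapping libraries, but passed (log2 difference -1.09 ± 0.25, adjusted p = 0.000553). The scaffold TJP1 and the membrane protein OCLN, which many cell types carry, had HCT116 means 1.82 and 1.99 times those of HAP1, and neither overlapped. The scaffold TJP3 was 4.81 times higher in HCT116 by mean, with overlapping libraries, from 0.671 to 7.39 FPKM in HAP1 and from 5.38 to 21.7 in HCT116.

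HAP1 held RNA of 3 of the 4 desmosomal genes at over 10 FPKM. DSP, the plakin that ties keratin to the desmosome, ran from 10.9 through 13.5 to 14.8 FPKM in HAP1 and from 20.5 through 25.5 to 30.9 in HCT116 (log2 difference -0.91 ± 0.08, adjusted p = 1.85e-09). DSG2, the desmosomal cadherin of simple epithelia, and JUP, plakoglobin, were 2.10 and 2.90 times higher in HCT116, with HAP1 means of 27.2 and 29.3 FPKM. PKP3, a plaque protein, had means of 0.287 FPKM in HAP1 and 48.3 in HCT116.

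The largest difference on the log2 scale among the 32 genes tested was in a keratin, KRT19 (-7.85). KRT8 and KRT18 form the filament pair of simple epithelia, and KRT19 is a type I keratin of ductal and glandular cells. KRT8 ran from 6.01 through 11.3 to 14.9 FPKM in HAP1 and from 513 through 706 to 923 in HCT116 (log2 difference -5.88 ± 0.13, adjusted p = 3.06e-20). KRT18 was at 39.1 ± 5.70 (SD, n = 8) in HAP1 and at 486 ± 37.4 (SD, n = 11) in HCT116. KRT19 was at 0.935 ± 0.632 in HAP1 and at 457 ± 169 in HCT116, a ratio of means of 489, the highest among the genes for which both lines averaged at least 0.5 FPKM. In HAP1 KRT18 thus exceeded KRT8 by FPKM, a scale set per length, and in HCT116 KRT8 exceeded KRT18. The genes KRT8 (chr12:52897187-52949954, minus strand) and KRT18 (chr12:52948871-52952906, plus strand) overlap at their starts in GENCODE release 44, which also lists 51 pseudogenes named after KRT8 and 68 after KRT18. Their values are uncertain to that degree, since the sources used here do not state that the quantification used strand. KRT20, a keratin of differentiated intestinal cells, had at most 0.0980 FPKM in HAP1 and between 0.0693 and 1.93 in unedited HCT116.

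Among the surface protease genes, ST14 (matriptase) had a mean of 0.137 FPKM in HAP1 and 49.1 in HCT116, while its inhibitors SPINT1 and SPINT2 were expressed in HAP1 at means of 29.6 and 66.1. SPINT1 and SPINT2 were 1.82 and 3.75 times higher in HCT116.

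The epithelial regulators were low in HAP1 with the exception of ESRP1, a splicing regulator, which ran from 3.06 through 5.82 to 9.54 FPKM against 35.3 through 57.0 to 82.1 in HCT116 (log2 difference -3.14 ± 0.18, adjusted p = 5.61e-13). Its paralog ESRP2 had a mean of 0.280 FPKM in HAP1 and 18.1 in HCT116. The transcription factor ELF3 was at 0.261 and 43.2, and OVOL1, a repressor of mesenchymal genes, at 0.0900 and 3.12. GRHL2, an activator of epithelial junction genes, was at 0 in 7 of the 8 unedited HAP1 libraries and passed (log2 difference -1.55 ± 0.34, adjusted p = 0.000389), although its 11 HCT116 values ran from 0.140 to 5.02.

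Of the mesenchymal transcription factors, ZEB2 ran from 6.97 through 8.52 to 9.001 FPKM in HAP1 and from 0 through 0.0560 to 0.407 in HCT116 (log2 difference 3.03 ± 0.09, adjusted p = 6.36e-18). ZEB1 and TWIST1 were 3.23 and 4.73 times higher in HAP1 by mean, and neither overlapped between the lines. SNAI1 went the other way, with 1.39 through 2.33 to 7.97 FPKM in HAP1 and 6.15 through 13.2 to 21.8 in HCT116 (log2 difference -1.91 ± 0.21, adjusted p = 5.09e-08). SNAI2 was at most 0.141 FPKM in unedited HAP1 and 0.192 in unedited HCT116.

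Of the structural genes, VIM ran from 90.5 through 108 to 152 FPKM in HAP1 and from 1.03 through 6.52 to 12.2 in HCT116 (log2 difference 4.32 ± 0.33, adjusted p = 8.96e-11). CDH2, which encodes N-cadherin, had a mean of 9.17 FPKM in HAP1 and 0.0715 in HCT116. S100A4, a calcium-binding protein counted among mesenchymal markers, was the reverse: 3.73 through 5.66 to 7.63 FPKM in HAP1 against 279 through 543 to 769.8 in HCT116, 91.2 times the mean. FN1, fibronectin, overlapped between the lines, with means of 3.39 and 2.78. MMP2, a gelatinase, had means of 0.257 and 0.0214. By RNA, HAP1 thus held VIM, CDH2, ZEB1, ZEB2 and TWIST1 together with desmosomal genes, KRT18 and SPINT1, and HCT116 held the epithelial genes together with SNAI1 and S100A4.

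**Figure D2:**
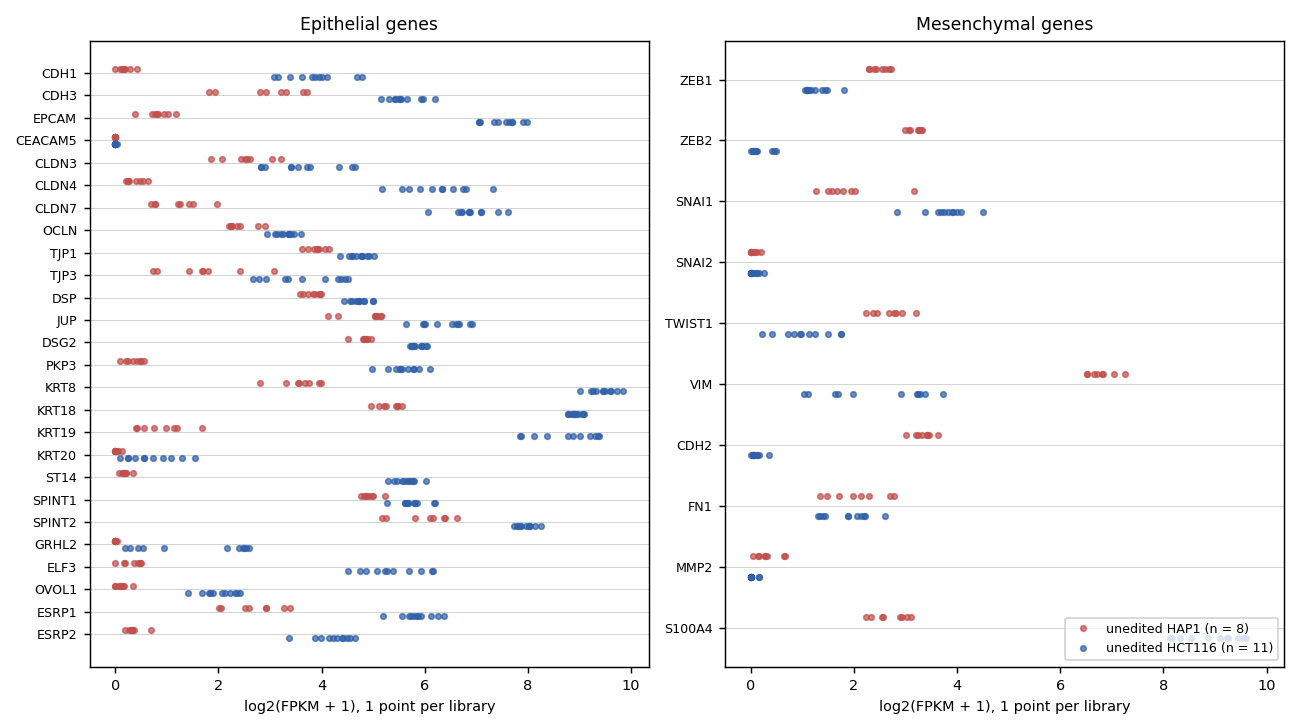
Level of each gene in unedited HAP1 (red, 8 libraries) and unedited HCT116 (blue, 11 libraries), with 1 point per library on a log2(FPKM + 1) axis. Libraries of the lines are apart for 28 of the 36 genes, and SNAI1 and S100A4 lie to the right in HCT116 although they are grouped with the mesenchymal genes.

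Related genes from lists outside the 36 gave a mixed count in the same comparison, in which 28.5% of all genes tested were lower in HAP1 and 39.5% higher. Of 7 other desmosome genes tested, 6 were lower in HAP1 and 0 higher, and the largest differences were in EVPL (-3.81), DSC3 (-2.54) and PPL (-2.13). All 4 other keratins tested were lower, led by KRT23 (-3.05), KRT7 (-2.54) and KRT15 (-2.51). Of 13 other tight junction genes, 9 were lower and 3 higher, with CRB3 (-3.78), MARVELD2 (-3.28) and CLDN1 (1.76) the furthest apart. Of 15 other epithelial genes, 10 were lower and 3 higher, led by RAB25 (-5.94), S100A14 (-5.58) and AP1M2 (-4.97). The other adherens junction genes moved both ways: of 8 tested, 3 were lower and 2 higher, with NECTIN3 (-2.04), AFDN (1.05) and CTNNA1 (-0.49) the largest. Other genes named mesenchymal did not follow VIM: of 17 tested, 12 were lower in HAP1 and 4 higher, and CD44 (-7.04), NT5E (-4.71) and TPM2 (-4.63) were the furthest apart. CD44 and NT5E are surface proteins that many epithelial cancers also carry. Of 13 other transcription factors and TGF-beta pathway genes, 7 were higher and 3 lower, among them TCF4 (3.37), TGFBR2 (-1.78) and SMAD7 (0.92).

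The second comparison asked whether the identity genes differed between the HAP1 NUP58 clones and WT. Over the mean of the 6 clones, 22 of the 36 genes were tested, the other 14 being below the minimum level, and 6 passed, against 6.6% of all 13180 genes tested. The 5 that fell (3.43% of all genes) were epithelial: KRT8, KRT18, JUP, CDH3 and ESRP1. The 1 that rose (3.17% of all genes) was ZEB2. The median difference over the 14 epithelial genes tested was -0.64 on the log2 scale, over the 8 mesenchymal genes 0.05 and over all genes -0.02. The 6 clones and EV are compared with the same 4 WT libraries.

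The clones differed among themselves. Alone against WT and out of 21 or 22 genes tested, 4 passed in C2 (0.732% of all genes), 4 in C5 (7.55%) and 8 in C6 (11.7%). C1 had 0 (0.479% of all genes), as did C3 (0.0911%) and C4 (0.16%). Where none passed by limma, 12 genes had an unadjusted p under 0.05 in C1 (11.7% of all genes), 2 in C3 (4.8%) and 9 in C4 (6.63%). In EV, 0 of 22 passed (0.038% of all genes) and 2 had an unadjusted p under 0.05 (2.08%). Same-numbered libraries of C1 to C4 and EV varied together with WT. When the fit took the number as a block, 4 genes passed in C1 (1.5% of all genes) and 7 in C4 (2.43%), all of them lower than in WT. In C1 these were CLDN3, KRT8, SPINT1 and SPINT2. In C4 they were CLDN3, JUP, KRT8, KRT18, SPINT1, SPINT2 and ESRP1. In C2 the block gave 6 genes (1.23% of all genes), with CDH3 (-1.76), JUP (-0.94) and SPINT2 (-1.10) gained and KRT18 lost. Leaving out 1 library moved the C2 count to between 0 and 5 (0.259% to 0.712% of all genes). In a test of differences among all 8 HAP1 lines, 15 of the 22 genes passed, against 21.5% of all genes.

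KRT8 separated C3 from the other clones. It was at 10.6, 12.6, 6.01 and 10.8 FPKM in the WT libraries and at 11.8, 14.5, 8.91 and 14.9 in EV. It was at 3.73, 5.26, 2.94 and 4.36 in C1, at 3.17, 1.40, 2.43 and 3.30 in C2, and at 3.53, 2.65, 3.72 and 3.85 in C4. C5 had 2.23, 2.95, 2.21 and 2.75, and C6 had 1.98, 1.17, 1.94 and 0.854. All 20 libraries of these clones lay below every WT and EV library. C3, with 7.15, 10.98, 8.49 and 13.6 FPKM, overlapped with WT.
The KRT8 difference from WT was -2.13 ± 0.24 in C6 (SE, adjusted p = 0.000619), -1.60 ± 0.21 in C5 (0.00180) and -1.62 ± 0.25 in C2 (0.0193), with 0.01 in C3. The C2 call was lost without C2 replicate 3 or WT replicate 1 or 4 (adjusted p = 0.0794 to 0.0826) and with no filter (0.0698). The exact permutation p was 0.0286 in each of C2, C5 and C6 (two-sided), the smallest that 4 against 4 libraries allow.
Over the 6 clones KRT8 fell by 1.29 ± 0.17 on the log2 scale (adjusted p = 7.93e-06).

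KRT18, its filament partner, was also at its lowest in C6. It ran from 30.2 to 43.6 FPKM in WT and from 36.1 to 46.4 in EV, and the 24 clone libraries ran from 16.2 through a median of 23.1 to 35.7. The libraries of C1, C2, C4, C5 and C6 all lay below every WT library, with C6 at 19.7, 18.05, 16.2 and 16.98, and those of C3 (25.4, 25.2, 35.7 and 32.5) overlapped with it. The difference was -0.79 ± 0.14 in C2 (adjusted p = 0.0408, or 0.0574 with the block) and -1.03 ± 0.14 in C6 (adjusted p = 0.00152), and over the 6 clones it fell by 0.67 ± 0.10 (adjusted p = 3.63e-05). The C2 call for KRT18 was lost without any 1 C2 library, without WT replicate 1, 3 or 4 (adjusted p = 0.0641 to 0.154) and with no filter (0.0698). KRT19, at a level too low to test, overlapped with 0.121 to 1.44 FPKM in the clones and 0.324 to 2.198 in unedited HAP1.

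In the desmosome, JUP was at 34.7, 32.03, 18.9 and 32.7 FPKM in WT and 34.7, 32.9, 16.4 and 31.8 in EV, with replicate 3 low in both. C6 had 10.3, 12.7, 7.76 and 11.1, and the 28 other HAP1 libraries ran from 12.4 upwards, so that 1 library of C2 reached into the C6 range. JUP fell in C6 by 1.40 ± 0.21 (adjusted p = 0.00239) and over the 6 clones by 0.75 ± 0.16 (adjusted p = 0.00338). DSP passed in C6 and in no other clone: the 4 C6 libraries had 6.36, 6.56, 6.82 and 6.83 FPKM, and the 28 other HAP1 libraries ran from 10.2 to 16.7. DSP fell in C6 by 0.86 ± 0.12 (adjusted p = 0.00165, exact permutation p = 0.0286, two-sided). DSP lies on the short arm of chromosome 6 (chr6:7541338-7586714), and in C6 the 72 tested genes in the first 20 Mb of that chromosome had a median difference from WT of -0.66, against -0.05 to 0.05 in the other clones and EV. The part of this stretch in the DSP result was not tested. DSG2 was at 34.3 to 36.4 FPKM in C5 against 27.1 to 29.9 in WT, and passed among the 8 lines (F = 5.82, adjusted p = 0.00321). In C5 alone against WT its difference was 0.31 (adjusted p = 0.0650), and it passed there with the block (adjusted p = 0.0463), with no filter on low FPKM and in 1 fit of all HAP1 libraries. PKP3 was at 2.49 FPKM or less in every HAP1 library.

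Of the adhesion molecules, CDH3 varied with the replicate number in unedited cells, with 12.2, 11.5, 2.84 and 6.63 FPKM in WT and 8.28, 8.98, 2.54 and 5.96 in EV. C6 had 1.58, 2.68, 0.928 and 1.53, and C2 had 2.07, 2.28, 1.06 and 0.765, below every WT library. CDH3 fell in C6 by 1.67 ± 0.37 (adjusted p = 0.0187) and over the 6 clones by 1.18 ± 0.30 (adjusted p = 0.0138), but missed the threshold against EV as the control (-0.91, adjusted p = 0.0556) and without WT replicate 1 (0.111) or 2 (0.0863). In C6 the CDH3 call was lost without C6 replicate 1 or 3 or WT replicate 1 (adjusted p = 0.0508 to 0.0553) and with no filter (0.0559). CDH1 stayed under 0.4 FPKM in all HAP1 libraries except C1 replicates 2 and 3, which had 1.17 and 0.777.

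EPCAM was raised in 1 clone. The C5 libraries had 15.04, 16.7, 10.5 and 16.2 FPKM, and the 28 other HAP1 libraries ran from 0.181 through 0.481 to 1.25, so that no library of another line came near. The difference from WT was 2.97 ± 0.18 on the log2 scale (adjusted p = 4.65e-05, exact permutation p = 0.0286, two-sided). The C5 mean of 14.6 ± 2.82 FPKM (SD, n = 4) remained far below the 132 to 253 of unedited HCT116. Of other genes that are high in HCT116, KRT19 was at 0.938 to 1.42 FPKM in C5, CDH1 at 0 in 3 of 4 libraries, ST14 at 0.219 or less and S100A4 at 3.36 to 7.35. OCLN, at 4.71, 4.37, 4.03 and 4.95 in C5 against 3.62 to 3.81 in WT, lay above every WT library without passing (0.22, adjusted p = 0.345), and DSG2 and OVOL1 also lay above every WT library in C5. EPCAM lies at chr2:47345158-47387601, and the 13 tested genes within 1 Mb of it had a median difference from WT of -0.02 in C5.
C5 differed from the other clones in further identity genes. CDH2 was at 5.14, 2.85, 4.80 and 5.27 FPKM in C5, against 11.4, 8.19, 9.62 and 10.01 in WT, a fall of 0.99 ± 0.18 (adjusted p = 0.0109), and against 5.83 to 12.1 in the 28 other HAP1 libraries. ZEB1 was at 2.30, 2.70, 2.85 and 4.01 in C5 and at 3.88, 5.08, 5.41 and 4.21 in WT. All 4 libraries of C1 (7.12 to 9.68), C2 (6.69 to 11.5), C4 (6.60 to 11.03) and C6 (5.84 to 8.55) lay above every WT library, while those of C3 (5.05 to 6.54) and C5 overlapped with WT. ZEB1 passed among the 8 lines (F = 13.6, adjusted p = 6.25e-06). Fitted alone with WT it passed in no clone, with -0.52 in C5 and 0.72 in C2, and in 1 fit of all 32 HAP1 libraries it passed in C1, C2, C4, C5 and C6. OVOL1, which is too low to test, was at 0.352 to 0.796 FPKM in C5 and at 0.460 or less elsewhere in HAP1. SNAI2, also too low to test, was at 0.460, 0.639, 0.475 and 0.190 FPKM in C5 and at 0.0619 or less in WT. All 4 libraries of C3 and C4 also lay above every WT library in SNAI2. CLDN7 was at 0.302 FPKM or less in C5 and at 0.695 to 1.69 in WT. With no filter on low FPKM, 8 genes passed in C5 (3.48% of all genes), with CLDN7, DSG2, OVOL1 and SNAI2 added.

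Of the 8 mesenchymal genes tested, ZEB2 passed over the 6 clones. With the replicate block, ZEB1 also passed, at 0.37 higher (adjusted p = 0.0313), as did CLDN3 (-0.71), SPINT1 (-0.49) and SPINT2 (-0.69), 10 genes in all against 12.6% of all genes. With WT and EV together as the control, ZEB1 and FN1 passed, as did CLDN3, OCLN, SPINT1 and SPINT2, 12 genes in all against 17.5%. ZEB2 was at 7.47, 8.61, 6.97 and 8.90 FPKM in WT and at 7.3995, 9.001, 8.45 and 8.60 in EV. C5 had 14.8, 15.4, 17.5 and 18.2, C6 14.95, 15.4, 14.1 and 12.6, and C2 16.3, 12.5, 15.2 and 14.96. In C1 ZEB2 was at 14.4, 11.7, 14.3 and 13.9, all above WT as well, while 1 library each of C3 (7.78) and C4 (8.28) fell within the WT range. ZEB2 rose by 0.96 ± 0.13 in C5 (adjusted p = 0.00184), by 0.81 ± 0.14 in C2 (0.0274) and by 0.76 ± 0.13 in C6 (0.00426), each with an exact permutation p of 0.0286 (two-sided), and by 0.67 ± 0.11 over the 6 clones (adjusted p = 9.20e-05). The ZEB2 call in C2 was lost without C2 replicate 1, 3 or 4 or WT replicate 1, 3 or 4 (adjusted p = 0.0687 to 0.115). By mean over 4 libraries, C5 was the line with the most ZEB2 and the least ZEB1.

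Of the remaining epithelial genes, SPINT2 was at 70.4, 98.2, 37.3 and 55.2 FPKM in WT and fell in C6, with 17.3, 24.0, 19.8 and 41.3, the last within the WT range (-1.31 ± 0.32, adjusted p = 0.0250, exact permutation p = 0.0571, two-sided). The C6 call was lost without C6 replicate 1, 2 or 3 or WT replicate 1 or 4 (adjusted p = 0.0570 to 0.0760) and with no filter (0.0682). In C5 SPINT2 was at 60.7 to 126, with a difference of 0.43 that did not pass. ESRP1 was at 6.596, 4.75, 3.12 and 5.05 in WT and 2.12, 1.63, 1.34 and 1.16 in C2, where it fell by 1.18 ± 0.22 (adjusted p = 0.0443). That C2 call was lost without any 1 C2 library, without WT replicate 1, 2 or 4 (adjusted p = 0.0606 to 0.156) and with no filter (0.111). Over the 6 clones ESRP1 fell by 0.62 ± 0.19 (adjusted p = 0.0420), a call that was lost without C1 (adjusted p = 0.0715), C2 (0.133) or C4 (0.0565), without WT replicate 1 (0.220), 2 (0.0930) or 4 (0.131), and with no filter on low FPKM (0.0783). In EV, which does not carry the mutation, ESRP1 was at 8.71, 9.54, 3.06 and 6.62. OCLN passed among the 8 lines (F = 5.43, adjusted p = 0.00485), with EV highest (4.11 to 6.496) and C3 (1.63 to 2.79) and C2 (1.08 to 3.15) lowest, but in no clone against WT. SPINT1 also passed among the lines (F = 3.86, adjusted p = 0.0265), a call that was lost without the libraries of any 1 replicate number (0.0510 to 0.210), with no filter (0.0535) and among the 6 clones alone (0.312). OCLN was lost without the libraries numbered 1 and among the 6 clones alone, DSG2 without those numbered 4, and CDH3 and FN1 without those numbered 1 or 4. TJP1 and TJP3 passed in no HAP1 comparison.

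Of the remaining mesenchymal genes, VIM was at 85.1, 80.4, 100.2 and 82.0 FPKM in C6 and at 131, 104, 152 and 113 in WT, a fall of 0.51 ± 0.13 (adjusted p = 0.0342). The call was lost without C6 replicate 1, 2 or 4 or WT replicate 1, 3 or 4 (adjusted p = 0.0594 to 0.107). It was also lost in 1 fit of all HAP1 libraries (0.0850) and with no filter (0.0623). EV, at 90.5 to 111, overlapped with C6. FN1 passed among the lines (F = 5.02, adjusted p = 0.00736), with 6.05 to 10.3 FPKM in C6 and 2.27 to 5.89 in WT. MMP2 was at 1.85, 2.52, 0.529 and 1.63 in C6 against 0.574 or less in all other HAP1 libraries, and did not pass in C6 (0.87 on the log2 scale). SNAI1, TWIST1 and S100A4 passed in no clone.

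**Figure D3:**
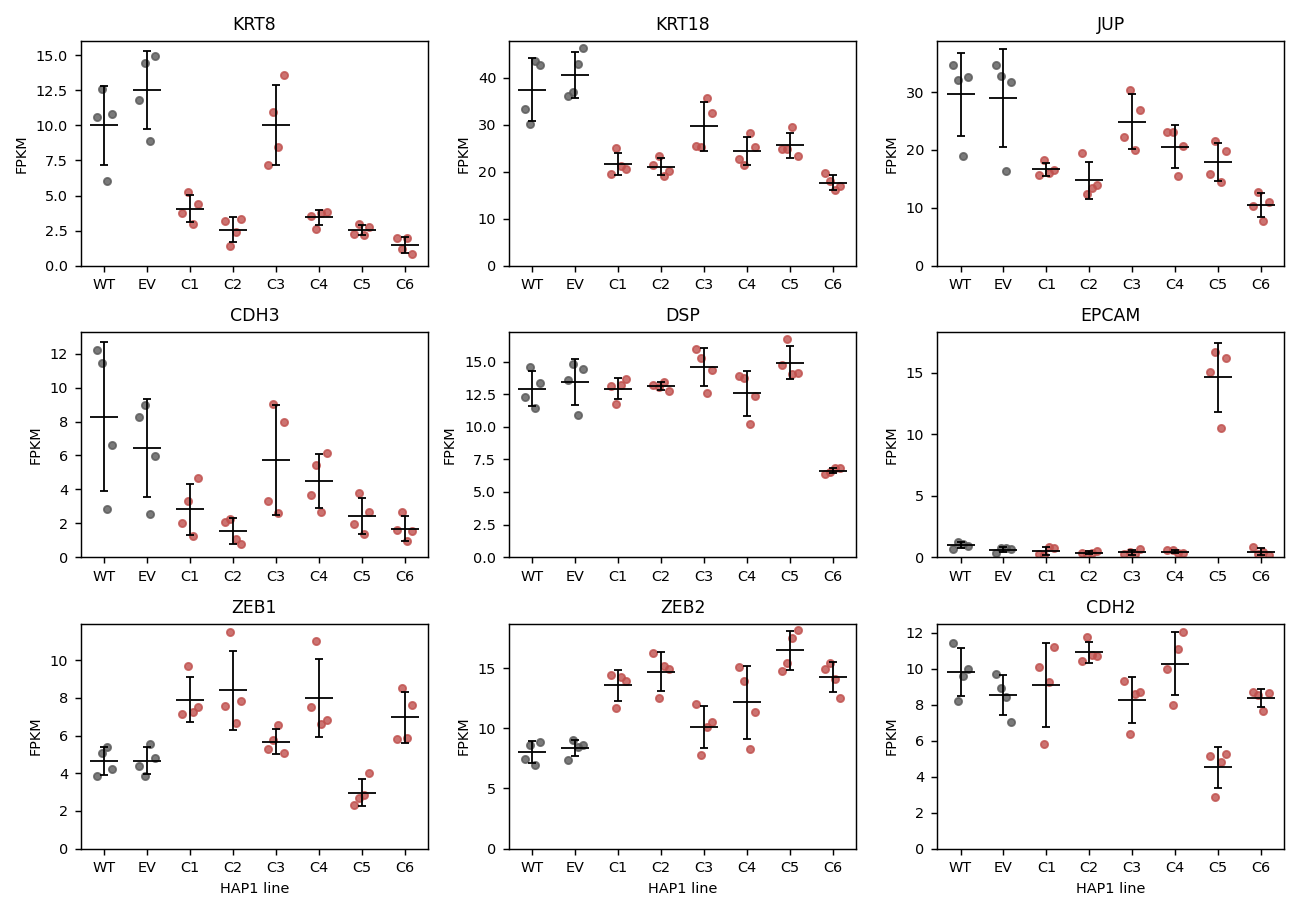
FPKM of 9 genes in the 8 HAP1 lines, 1 point per library (grey WT and EV, red clones), with the mean and SD of 4 libraries in black, on linear axes from 0. KRT8 is low in all clones but C3, DSP is low in C6 alone (6.36 to 6.83), and C5 stands apart in EPCAM and CDH2 and has the lowest mean of ZEB1.

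**Figure D4:**
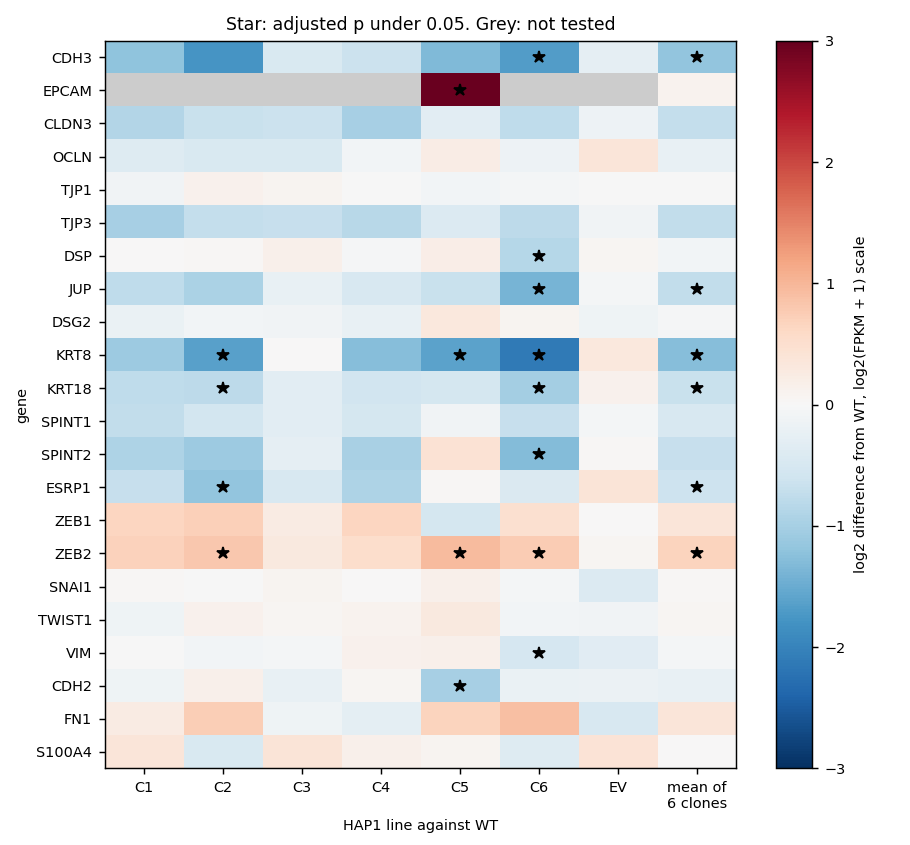
Difference from WT on the log2(FPKM + 1) scale for the 22 genes tested over the 6 clones (rows), in each clone, in EV and over the mean of the clones (columns), red for higher and blue for lower, with a star where the adjusted p was under 0.05 and grey where a gene was not tested. KRT8 reaches -2.13 in C6 and EPCAM 2.97 in C5, and the EV column holds no star.

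Of the related genes outside the 36, 12 of 60 tested passed over the 6 clones, against 6.6% of all genes (3.43% lower and 3.17% higher). In the tight junction, 3 of 11 tested fell, with F11R, a junctional adhesion molecule, at -0.82 and LSR, a protein of tricellular contacts, at -0.52. In the desmosome 1 of 4 fell, PERP at -0.46, and 2 of 8 other epithelial genes fell, the motor MYO5B at -0.62 and the transcription factor KLF5 at -0.53. Of 14 other mesenchymal genes, the tropomyosin TPM1 (-0.76) and EMP3 (-1.01) fell, and the receptor PDGFRA rose by 1.18, from 6.11 ± 1.79 FPKM (SD, n = 4) in WT to 15.6 ± 5.85 (n = 24) in the clones. Of 14 transcription factors and TGF-beta pathway genes, 3 rose, among them the ligand TGFB3 (0.56) and the inhibitory SMAD7 (0.52). The 8 other adherens junction genes and the 1 other keratin tested did not pass, with the lowest adjusted p in NECTIN1 (-0.24, adjusted p = 0.0854).

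The third comparison asked the same of HCT116. With all 15 libraries, 0 of 30 genes tested passed between Clone and unedited HCT116 by limma, against 0% of all 12960 genes, while 6 of the 30 and 10.4% of all genes had an unadjusted p under 0.05. Without the libraries numbered 3, 9 of 31 passed, against 5.92% of all genes: EPCAM (-0.76), PKP3 (-0.66), ST14 (-0.51), ESRP1 (-0.95) and ESRP2 (-0.61) were lower in the clone, and DSP (0.66), KRT20 (1.00), ZEB1 (1.20) and TWIST1 (1.15) higher. With replicates 1 and 2 alone, which leaves 2 clone libraries against 6, 0 of 31 passed (0.046% of all genes). Of the 31, 10 had an unadjusted p under 0.05, and the share of all genes at that level was not computed. Without the library labelled Clone replicate 3 alone, 5 passed (4.27% of all genes). The libraries numbered 3 were left out with their values of NUP58, ZEB1 and GRHL2 known, and the choice of replicates 1 and 2 was made after the library values were seen, so the calls without them describe the remaining libraries and are not independent support.

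EPCAM was at 112, 117, 272 and 102 FPKM in Clone replicates 1 to 4 and ran from 132 through 189 to 253 in the controls, so 3 clone libraries lay below all controls and the library labelled Clone replicate 3 above them. ESRP1 was at 28.4, 27.7, 43.4 and 32.2 in the clone against 35.3 to 82.1 in the controls, whose lowest value came from the library labelled EV2 replicate 3. The ESRP1 difference with all libraries was -0.79 ± 0.18 (adjusted p = 0.332, exact permutation p = 0.00147, two-sided). For ZEB1, whose values are given above, it was 0.80 ± 0.21 (adjusted p = 0.332, exact permutation p = 0.00586, two-sided).
TWIST1 was at 4.09, 4.89, 0.901 and 2.27 in the clone and from 0.159 through 0.957 to 2.38 in the controls, and KRT20 at 2.21, 2.63, 0.0913 and 1.69 against 0.0693 through 0.480 to 1.93. DSP was at 38.5, 36.5, 18.5 and 46.98 against 20.5 through 25.5 to 30.9. In TWIST1 and KRT20 the library labelled Clone replicate 3 lay within the range of the controls, and in DSP below it. S100A4 did not divide in this way, with 840.3, 907, 956 and 718 FPKM in the clone and 279 through 543 to 769.8 in the controls (0.81 ± 0.26, adjusted p = 0.351). KRT8 was at 765, 744 and 682 in Clone replicates 1, 2 and 4, within the 513 to 923 of the controls, and at 1090.1 in the library labelled Clone replicate 3. CDH1 was at 8.38, 8.57, 14.2 and 7.31 against 7.47 through 13.7 to 26.5. ZEB2 and CDH2 stayed under 0.5 FPKM in all 15 HCT116 libraries.

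**Figure D5:**
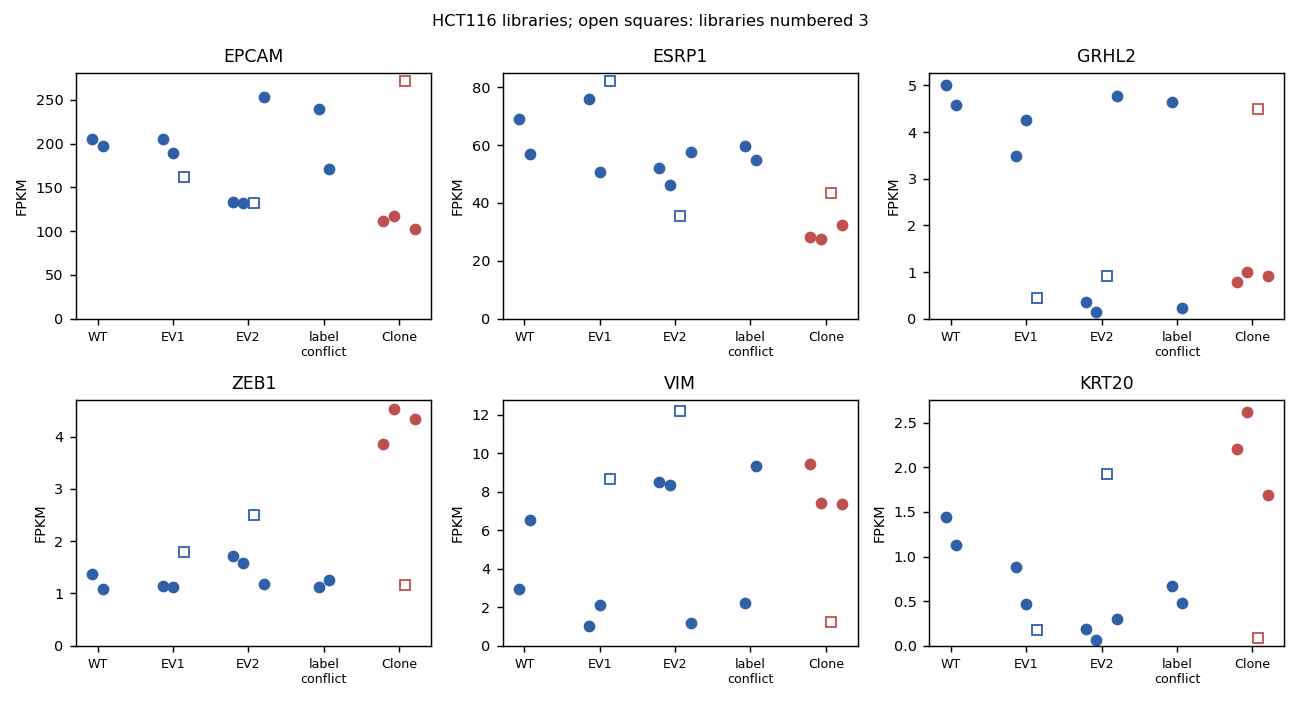
FPKM of 6 genes in the 15 HCT116 libraries by line (blue unedited, red Clone), with the libraries numbered 3 as open squares and the 2 controls with conflicting labels in a column of their own, on linear axes from 0. In ZEB1 the open red square (1.17) lies among the controls and the other 3 clone libraries lie between 3.87 and 4.52.

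Whether the difference between clone and control differed between the cell lines was tested directly. Of 31 genes, 3 passed, against 1.8% of all 13629 genes: KRT8 (1.49 ± 0.23, adjusted p = 6.21e-05), KRT18 (0.62 ± 0.14, adjusted p = 0.0114) and ZEB2 (-0.64 ± 0.16, adjusted p = 0.0230), as HCT116 clone effect minus mean HAP1 clone effect. KRT8 and KRT18 were thus lower in the HAP1 clones relative to their control than in the HCT116 clone. ZEB2 was at 0.407 FPKM or less in every HCT116 library, and missed the threshold with a pseudocount of 0.1 (adjusted p = 0.700) or values scaled to TPM (0.0565). Without the HCT116 libraries numbered 3, 8 of 30 passed (6.67% of all genes), with EPCAM (-0.86), DSP (0.74), ST14 (-0.51), ZEB1 (0.83) and TWIST1 (1.08) added. With HCT116 replicates 1 and 2 alone, 4 passed (2.72%): KRT8 (1.43), DSP (0.58), ZEB1 (0.78) and TWIST1 (1.29). KRT8 passed in all 3 of these fits, and KRT18 and ZEB2 were lost in the last (adjusted p = 0.0918 and 0.0819).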

How the data were processed

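RNA of 47 libraries of 2 human cell lines was sequenced by the authors, who trimmed adaptors, ran FastQC, mapped with STAR (GRCh38.p13) and estimated gene levels by RSEM. The deposited FPKM values are scaled to transcript length and library size, with no further normalization by the authors. Libraries were grouped by their labels, and all columns of the table were used. The 36 genes, the lists of related genes and the tests were chosen with earlier results of these data known. The genes named are all 36, up to 3 genes per related list with the largest difference between the cell lines, and 10 related genes with the largest difference over the clones.

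FPKM were analysed as log2(FPKM + 1) with limma 3.58.1 in R 4.3.3 (lmFit, eBayes with trend), for genes averaging 1 FPKM or more. Each HAP1 line was fitted with WT (8 libraries), the mean of clones and the test among lines over 32 libraries, and cell lines over 19. Exact permutation tests compared mean log2 values. The fits were tested on simulated data. Replicate numbers were taken to pair C1 to C4 and EV with WT, since deviations of same-numbered libraries correlated across genes at over 0.1 in all 4 pairs of each line (lowest 0.15). Alternatives were a pseudocount of 0.1, no filter, scaling to TPM, a replicate block, one fit of all HAP1 libraries, other controls, and leaving out each library, replicate number, clone or control line. Promoters came from RefSeq (GRCh38.p14) and positions from GENCODE release 44, which holds all 36 identifiers. Precision is limited by 2 to 4 libraries per line.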

Additional observations from a re-analysis of the deposited data

Results flagged for a closer look

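Within a line of 4 libraries, a value was singled out when its gap to the nearest other value exceeded Dixon's 95% critical value on the log2 scale. Of 234 combinations of gene and line with a mean of at least 1 FPKM, 20 were singled out, and chance alone singles out about 1 in 20. Of these, 8 were in the library labelled HCT116 Clone replicate 3. There, EPCAM was at 272 FPKM (102 to 117 in the other 3), KRT18 at 635 (409 to 441) and GRHL2 at 4.50 (0.796 to 0.999). TJP1 was at 21.5 (27.2 to 28.6), TJP3 at 6.23 (15.6 to 17.4) and ELF3 at 26.8 (36.4 to 38.1). ZEB1 was at 1.17 (3.87 to 4.52) and VIM at 1.21 (7.35 to 9.44). HCT116 EV2 replicate 4 stood out in EPCAM, at 253 against 132 to 134.

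In HAP1, OCLN was low in replicate 4 of C2 (1.08 against 2.93 to 3.15) and of C3 (1.63 against 2.69 to 2.79). JUP was low in replicate 3 of WT (18.9 against 32.03 to 34.7) and of EV (16.4 against 31.8 to 34.7). VIM was low in replicate 2 of C1 (72.7 against 139 to 152) and of C2 (71.4 against 133 to 141). C1 replicate 2 was also high in ESRP1 (2.98 against 2.36 to 2.42) and in S100A4 (8.22 against 5.64 to 5.88). TWIST1 was high in C3 replicate 2 (8.97 against 4.86 to 5.37). CDH2 was low in C5 replicate 2 (2.85 against 4.80 to 5.27) and in C6 replicate 3 (7.64 against 8.53 to 8.72).

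The difference between clone and control differed between the cell lines, by the test of the difference itself, in KRT8 (1.49 on the log2 scale), KRT18 (0.62) and ZEB2 (-0.64). HCT116 holds 1 clone, of which the library labelled replicate 3 had NUP58 and ZEB1 levels among those of the controls. ZEB2 was lost with a pseudocount of 0.1 (adjusted p = 0.700) and as TPM (0.0565), and both KRT18 and ZEB2 with HCT116 replicates 1 and 2 alone (0.0918 and 0.0819).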

How the results depend on the processing

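Across the alternatives, 798 values of single genes that passed were recomputed. No difference changed sign, while the F values of the test among the 8 lines have no sign. Of the 798, 725 stayed past the threshold and 73 did not. Of the 73, 52 came from leaving out 1 library or, in the test among the 8 lines, all libraries of 1 replicate number. The count between unedited cell lines was 31 in all but 1 alternative (56.8% to 70.1% of all genes), and 33 with no filter (45.4%). The replicate block gave 4 genes in C1 (1.5% of all genes), 7 in C4 (2.43%), 9 in C5 (16.3%) and 10 over the 6 clones (12.6%). For C5 and C6 the numbers did not pair the libraries by the rule used: 2 of 4 pairs each correlated at over 0.1, the lowest at -0.36. In each, 2 of 4 libraries correlated best with their own number. C2 was taken as paired by that rule, but there too only 2 of 4 libraries correlated best with their own number. In 1 fit of all HAP1 libraries, 6 genes passed in C1 (3.32% of all genes), 7 in C2 (4.07%), 3 in C4 (1.02%) and 9 in C5 (12.3%). With no filter on low FPKM, 1 passed in C2 (ZEB2, 0.356% of all genes), 8 in C5 (3.48%) and 5 in C6 (5.82%). There CDH3, SPINT2 and VIM were lost in C6. With WT and EV together as the control, 12 passed over the clones (17.5%). Without the HCT116 libraries numbered 3, 9 passed in HCT116 (5.92%) and 8 between the clone effects (6.67%).

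Leaving out 1 library gave 0 to 2 genes in C1 (0.144% to 0.58% of all genes) and 0 to 5 in C2 (0.259% to 0.712%). It gave 0 to 1 in C4 (0.0987% to 0.207%), 4 to 6 in C5 (3.79% to 9.05%) and 5 to 9 in C6 (6.17% to 15%). Over the 6 clones, leaving out 1 WT library gave 4 to 6 (3.73% to 5.26%). The count in C1 was 2 without C1 replicate 2 (0.58%) or WT replicate 3 (0.349%) and 1 without WT replicate 2 (0.42%). In C2 it was 0 without C2 replicate 3, WT replicate 1 or WT replicate 4 (0.259% to 0.29%). There it was 1 without C2 replicate 1 or 4 (0.527% and 0.555%) and 2 without C2 replicate 2 (0.565%). In C4 it was 1 without WT replicate 3 (0.129%). In C6 it was 5 without C6 replicate 1 (6.73%) and 9 without WT replicate 2, where the share of all genes was also highest (15%). In HCT116 the count was 0 to 5, with 5 without Clone replicate 3 (4.27% of all genes) and 0 without any other library (0%). The cause was not tested. FPKM hold no depth, so the error of counting behind low values such as those of GRHL2, OVOL1 and KRT20 is unknown.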
